A study of Mus musculus with 10 samples.

Results

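The genes described are 10 members of the mouse major histocompatibility complex (MHC) class II pathway, listed by symbol as H2-Aa, H2-Ab1, H2-Eb1, Cd74, Ciita, H2-DMa, H2-DMb1, H2-DMb2, H2-Oa and H2-Ob, out of 55487 genes counted in all 10 RNA-sequencing libraries. The libraries came from mammary glands of 10-wk-old female BALB/c mice in diestrus, with 2 of WT and 2 of CebpbΔM mammary epithelial cells (MECs) and 2 of WT and 4 of CebpbΔM macrophages. CebpbΔM mice carry Csf1r-iCre and homozygous floxed Cebpb, the gene of the transcription factor C/EBPβ, and WT mice carry the same floxed alleles without Cre. Csf1r-iCre acts in all myeloid cells that express CSF1R, so the deletion was not limited to macrophages, and Cre was not directed at the epithelium, so CebpbΔM MECs are epithelial cells from mice with the myeloid deletion. The epithelial libraries followed depletion of cells with other lineage markers and the macrophage libraries followed positive selection for F4/80, so cell type and isolation method cannot be told apart. The labels name no animals for the libraries, and P-values then measure the spread between these libraries, which may be technical.

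MHC class II molecules carry peptides from taken-up proteins to the surface of antigen-presenting cells, where CD4+ T cells read them. An α chain and a β chain pair in the endoplasmic reticulum with the invariant chain, which fills the peptide groove until endosomal proteases cut it down to a short remnant. The DM heterodimer then exchanges this remnant for peptide, and the DO heterodimer restrains DM. The coactivator CIITA sets transcription of the whole group by binding the factors RFX, CREB and NF-Y that sit on the X and Y boxes of class II promoters. Among tissue-resident cells of the mammary gland, the ductal macrophages and dendritic cells are known for high class II.

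H2-Aa (ENSMUSG00000036594), H2-Ab1 (ENSMUSG00000073421), H2-Eb1 (ENSMUSG00000060586), H2-DMa (ENSMUSG00000037649), H2-DMb1 (ENSMUSG00000079547), H2-DMb2 (ENSMUSG00000037548), H2-Oa (ENSMUSG00000024334) and H2-Ob (ENSMUSG00000041538) lie together on chromosome 17 of GRCm38. Their gene models run from chr17:34092340 at the start of H2-Oa to chr17:34316674 at the end of H2-Eb1, and H2-Aa is on the minus strand and the other 7 are on the plus strand. The counts cover whole exons, without distinction between coding sequence and UTR.

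Of the 10 genes, 7 had a promoter window in the RefSeq table for GRCm38.p6, each of 300 bases from 250 bases before to 50 bases after a transcription start site. H2-Ab1, Cd74 and Ciita have no entry. The Y box core, spelled TGATTGG and searched on both strands, was found in 6 of these 7 genes and in 7.82% of all 32851 promoter windows. H2-DMa had 2 windows, and neither held these letters. An X box core, spelled ACNGATG and also searched on both strands, was found in 9.85% of all windows, and both cores occurred together in 0.703%. The spellings were chosen after other spellings had been looked at in these windows, and a match is a description of letters. The 60 bases around the Y box core are shown for the 6 genes because this is the element that the genes have in common, with the Y box core and any X box core on the same strand upstream in capitals, 5′ to 3′ on the strand of the gene. The windows are chr17:34287859-34287918 (minus strand) for H2-Aa, chr17:34305761-34305820 for H2-Eb1, chr17:34153083-34153142 for H2-DMb1, chr17:34145112-34145171 for H2-DMb2, chr17:34092289-34092348 for H2-Oa and chr17:34238801-34238860 for H2-Ob, the last 5 on the plus strand.
H2-Aa: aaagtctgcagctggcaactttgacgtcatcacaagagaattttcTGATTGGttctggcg
H2-Eb1: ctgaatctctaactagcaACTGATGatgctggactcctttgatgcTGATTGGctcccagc
H2-DMb1: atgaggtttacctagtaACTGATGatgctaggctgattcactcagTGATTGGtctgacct
H2-DMb2: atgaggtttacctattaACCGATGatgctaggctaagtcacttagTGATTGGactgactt
H2-Oa: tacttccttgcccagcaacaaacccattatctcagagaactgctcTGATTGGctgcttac
H2-Ob: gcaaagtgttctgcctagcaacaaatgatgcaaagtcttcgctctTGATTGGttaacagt

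The Y box core began at position -50 from the start site in H2-Aa, -61 in H2-Eb1, -63 in H2-DMb1, -92 in H2-DMb2, -45 in H2-Oa and -59 in H2-Ob. In H2-DMb1 and H2-DMb2 the X box core began 28 bases before the Y box core, and in H2-Eb1 it began 27 bases before it. H2-Oa also held the X box letters at position -137, outside the 60 bases shown, and H2-Aa held them on the opposite strand at position -232. H2-Ob held none in this spelling. H2-DMb1 and H2-DMb2, which encode alternative β chains of DM, resemble each other in these windows and in their transcripts. Of the distinct 100-base stretches of their transcripts, 11.3% of those of H2-DMb1 and 10.3% of those of H2-DMb2 occurred in the other gene, so counts of this pair are less certain than those of the other members, which shared no such stretch with another gene.

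MEC libraries had total counts of 25310926 to 27008166, and macrophage libraries of 16935000 to 20174722. Cebpb itself gave 4 to 16 counts in the 4 CebpbΔM macrophage libraries and 13 and 15 counts in the WT libraries. These values overlap, and the gene was below the level filter in macrophages, so Cebpb could not check the genotype labels. In MECs it gave 69 and 42 counts in CebpbΔM 1 and 3 and 25 and 28 counts in WT 1 and 3. The cause of these low counts was not tested. The macrophage libraries held RNA of other cells beside strong macrophage markers. The sum of 12 epithelial markers such as Krt8 and Epcam was 6667 to 8724 CPM (counts scaled to the library size, which was adjusted by the trimmed mean of M-values, TMM) in CebpbΔM and 10492 to 10815 CPM in WT macrophages, against 31922 to 38427 CPM in MECs. Ptprc, which encodes the pan-leukocyte protein CD45, had 0 to 5 counts in the MEC libraries and 2354 to 3858 in the macrophage libraries.

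Class II transcripts took a large share of the macrophage libraries and a very small share of the MEC libraries. In macrophages, the 10 genes together held 0.814% and 1.03% of all counts in WT 4 and 5, and 1.15%, 1.80%, 1.39% and 1.95% in CebpbΔM 4, 5, 6 and 7. The genotypes did not overlap in this share, and CebpbΔM 4 lay closest to WT. The share was 0.00477% and 0.00348% in WT MECs 1 and 3, and 0.00677% and 0.00428% in CebpbΔM MECs 1 and 3, where the genotypes overlapped. The 95% Wilson interval of the lowest of these shares ran from 0.00326% to 0.00371%, and that of the highest from 1.94% to 1.96%, which covers counting error only. Cd74 alone took 0.530% to 1.28% of all counts in macrophages.

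**Figure D1:**
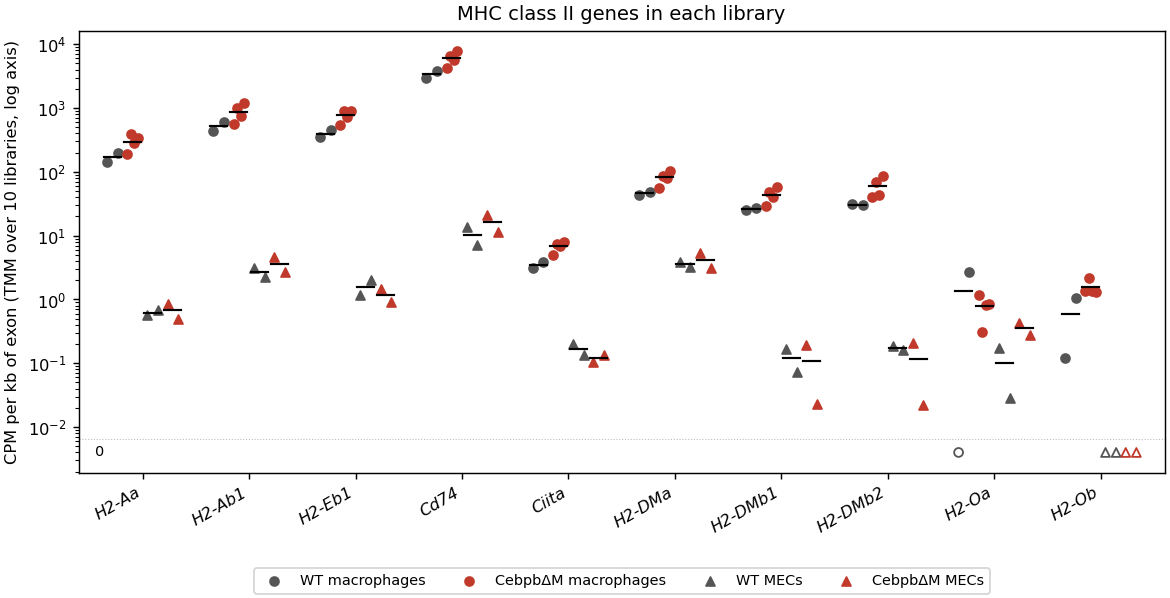
Level of each class II gene in each library, as CPM per kb of exon on a log axis with one TMM scaling of all 10 libraries. Circles are macrophage libraries and triangles MEC libraries, gray is WT and red CebpbΔM, short lines are group means, and open symbols at the bottom are libraries with 0 counts; macrophages lie far above MECs for every gene except H2-Oa, where the cell types overlap.

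Per kb of exon, the order of the levels in WT macrophages began with Cd74, at 3373 ± 646 CPM per kb (SD, n = 2). H2-Ab1 followed at 519.9 ± 112, H2-Eb1 at 397 ± 70.8 and H2-Aa at 171 ± 38.13 CPM per kb. The SD ranges of H2-Ab1 and H2-Eb1 overlapped, whereas H2-Aa lay below both. This order depends on the length of all annotated exons, which was 3798 bases for H2-Aa and 1944 for H2-Eb1. Without division by length, H2-Aa at 680 ± 152 and H2-Eb1 at 807 ± 145 CPM overlapped in WT macrophages (TMM over the macrophage libraries). The DM genes came next, with H2-DMa at 45.9 ± 3.46, H2-DMb2 at 30.8 ± 0.643 and H2-DMb1 at 26.2 ± 1.91 CPM per kb. Ciita was at 3.50 ± 0.494 CPM per kb, and the DO genes were lowest, with H2-Oa at 1.37 ± 1.94 and H2-Ob at 0.583 ± 0.653 CPM per kb, which did not differ beyond their spread. In CebpbΔM macrophages, Cd74 was at 6039 ± 1483 CPM per kb (SD, n = 4) and the order was the same down to Ciita at 6.81 ± 1.28. The mean of H2-Ob at 1.55 ± 0.418 was above that of H2-Oa at 0.783 ± 0.351, but their SD ranges overlapped slightly. H2-Ab1 at 883 ± 281 and H2-Eb1 at 769 ± 175 CPM per kb again overlapped. H2-DMb2 at 59.5 ± 21.4 CPM per kb overlapped H2-DMa at 81.8 ± 20.2 above it and H2-DMb1 at 43.9 ± 11.96 below it.

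The first comparison asked how class II levels differed between the isolated cell types. In WT mice 9 of the 10 genes were higher in macrophages than in MECs at an adjusted P of 0.05 or less (edgeR's quasi-likelihood test with Benjamini–Hochberg adjustment), where 14.8% of the 18323 genes tested were higher. Of the 9, H2-DMb1, H2-DMb2 and H2-Ob, with 0 to 8 counts in the WT MEC libraries, passed the level filter only through the macrophage libraries in which they are high and so had to differ. The other 6 called genes were H2-Aa, H2-Ab1, H2-Eb1, Cd74, Ciita and H2-DMa. Cd74, the invariant chain, was 327-fold higher (log2 fold change 8.35 ± 0.52, SE, adjusted P = 1.59e-06 by this test). H2-Aa, the α chain of I-A, was 276-fold higher, H2-Eb1, the β chain of I-E, 252-fold higher and H2-Ab1, the β chain of I-A, 195-fold higher. H2-DMb1 and H2-DMb2 were 211-fold and 174-fold higher, and H2-DMb1 was 344-fold higher without WT MEC 1.

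Ciita and H2-DMa differed less between the cell types. Ciita was 20.8-fold higher in WT macrophages (log2 fold change 4.38 ± 0.32, SE) and H2-DMa, the α chain of DM, 12.9-fold higher (3.69 ± 0.35). H2-DMa made up 24.7% to 29.9% of all class II counts in the MEC libraries and 1.68% to 1.99% in the macrophage libraries. Its exons overlap those of Brd2 on the opposite strand over 360 bases, and Brd2 had 10305 to 12271 counts in MECs. Ciita exons overlap those of Dexi over 329 bases, and Dexi had 30 to 39 counts in MECs. H2-Oa exons overlap those of BC051537 over 321 bases, and BC051537 had 6 to 82 counts in macrophages. Both of these overlaps are also on opposite strands, and Cd74 overlaps Mir5107 on the same strand over 12 bases. The counting used strand, and the part of the overlaps in the counts of these genes was not tested.

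The DO genes stood apart from the other members between cell types. H2-Ob, the DO β chain, had 0 counts in all 4 MEC libraries, and against a floor of 3 counts in the MEC library of smallest TMM-adjusted size it was at least 25.7-fold higher in WT and at least 68.2-fold higher in CebpbΔM macrophages. The WT bound rested on WT 5, since the bound was 5.35-fold from WT 4 and 46.1-fold from WT 5 alone, whereas it was 57.6-fold to 95.8-fold from each CebpbΔM library alone. H2-Oa, the DO α chain, gave a log2 fold change of 3.71 ± 1.64 in WT with an adjusted P of 0.12 by the quasi-likelihood test. Its counts were 0 and 81 in WT macrophages 4 and 5, so the WT macrophage value rested on 1 library, and 6 and 1 in WT MECs 1 and 3. Without WT 5 its log2 fold change was -4.66.

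In CebpbΔM mice 9 of the 10 genes were also higher in macrophages than in MECs, where 18.9% of all genes tested were higher, and H2-DMb1, H2-DMb2 and H2-Ob again passed the filter only through macrophages. H2-Eb1 was 650-fold higher (log2 fold change 9.34 ± 0.45, SE), H2-Aa 443-fold, Cd74 368-fold and H2-Ab1 245-fold higher. H2-DMb1 and H2-DMb2 had 8 and 9 counts in CebpbΔM MEC 1 and 1 count each in CebpbΔM MEC 3, and their folds rested on these counts. H2-DMb1 was 398-fold higher, and 223-fold without CebpbΔM MEC 3 or 1649-fold without CebpbΔM MEC 1. H2-DMb2 was 507-fold higher, and 279-fold or 2324-fold without the same libraries. Ciita was 56.2-fold and H2-DMa 19.5-fold higher, again the smallest of the called differences. H2-Oa did not pass the test (log2 fold change 1.13 ± 1.31).

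The next comparison asked whether loss of Cebpb in CSF1R-expressing cells went with other class II levels in macrophages. At an adjusted P of 0.05 or less, 0 of the 10 genes were called, and 0% of the 17772 genes tested were called higher and 0% lower by edgeR's quasi-likelihood test. Before adjustment, 8 of the 10 genes and 1534 of all genes had P below 0.05. The 8 genes became 5 without CebpbΔM 5 and 5 without CebpbΔM 7, where 1081 and 1360 of all genes had P below 0.05. Without WT 4, which leaves 1 WT library, the median log2 fold change of the 10 genes fell to 0.64. Of the 10 genes, 9 had higher fitted levels in CebpbΔM, and the median over the 10 log2 fold changes was 0.81, against 0.0040 over all genes tested. In 7 of the 10 genes every CebpbΔM library lay above both WT libraries, as for 9.67% of all genes tested. DESeq2 called 201 genes and edgeR's likelihood ratio test 138, and of the class II genes DESeq2 called Ciita and H2-Eb1 and the likelihood ratio test called 0. In bulk RNA, fewer cells of a type and less RNA per cell cannot be told apart.

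The genes of the surface molecules were each higher in CebpbΔM libraries on average. H2-Eb1 had 704 and 909 CPM in WT 4 and 5 and 1089, 1824, 1419 and 1813 CPM in CebpbΔM 4 to 7, without overlap. Its log2 fold change was 0.93 ± 0.25 (SE), which is 1.90-fold, with an adjusted P of 0.46 by edgeR's quasi-likelihood test. H2-Aa had 572 and 788 CPM in WT and 744, 1516, 1081 and 1319 CPM in CebpbΔM, where CebpbΔM 4 lay below WT 5. Its difference was 1.71-fold (log2 fold change 0.78 ± 0.29). H2-Ab1 had 1181 and 1609 CPM in WT and 1499, 2693, 1958 and 3173 CPM in CebpbΔM, with the same overlap, and differed 1.67-fold (0.74 ± 0.30).

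H2-Ea-ps, no member of the list, lies at the locus of the I-E α chain. It is annotated as a pseudogene in the C57BL/6 reference, a strain that makes no I-E α message, whereas BALB/c mice make one. It had 634 and 772 CPM in WT and 1039, 1664, 1357 and 1749 CPM in CebpbΔM macrophages, a 2.07-fold difference (log2 fold change 1.05 ± 0.24, adjusted P = 0.45 by the quasi-likelihood test). The class II alleles of BALB/c differ from those of the reference. Both genotypes share the effect of this on read mapping, but it may differ between genes, and it was not tested.

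Cd74 (ENSMUSG00000024610, chromosome 18, 60803848 to 60812652, plus strand of GRCm38) and Ciita (ENSMUSG00000022504, chromosome 16, 10480059 to 10528418, plus strand) lie outside the class II region. Cd74 had 5109 and 6725 CPM in WT 4 and 5 and 7286, 11223, 9742 and 13420 CPM in CebpbΔM 4 to 7, without overlap, and differed 1.76-fold (log2 fold change 0.82 ± 0.25, SE, adjusted P = 0.50 by the quasi-likelihood test). Ciita had 31.4 and 38.4 CPM in WT and 49.5, 71.8, 66.3 and 79.3 CPM in CebpbΔM, also without overlap. Its difference was 1.91-fold (0.93 ± 0.23) with an unadjusted P of 0.0034, the smallest of the 10, and an adjusted P of 0.45 by edgeR's quasi-likelihood test. In both genes CebpbΔM 4 was the lowest and CebpbΔM 7 the highest of the CebpbΔM libraries.

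The DM genes differed by like amounts. H2-DMa had 156 and 174 CPM in WT and 195, 311, 285 and 368 CPM in CebpbΔM macrophages, a 1.75-fold difference (log2 fold change 0.81 ± 0.25, SE). H2-DMb1 had 43.6 and 48.5 CPM in WT and 50.9, 84.1, 68.8 and 99.5 CPM in CebpbΔM, a 1.65-fold difference (0.72 ± 0.27). H2-DMb2 had 56.95 and 55.4 CPM in WT and 72.4, 124, 77.9 and 153 CPM in CebpbΔM, a 1.90-fold difference (0.93 ± 0.32). The genotypes did not overlap in any of the 3 genes, and CebpbΔM 5 and 7 were the highest libraries in each.

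The DO genes were low and uneven. H2-Oa had 0.00 and 4.03 CPM in WT 4 and 5 and 1.67, 0.451, 1.16 and 1.24 CPM in CebpbΔM 4 to 7, so that the WT libraries lay on both sides of all CebpbΔM libraries. Its log2 fold change of -0.83 had an SE of 1.31, and without WT 5 it was 7.39, since the remaining WT library held 0 counts. H2-Ob had 0.681 and 5.88 CPM in WT and 7.54, 12.03, 7.38 and 7.24 CPM in CebpbΔM, without overlap. Its log2 fold change of 1.38 ± 0.72 (SE) was 0.54 without WT 4, the library with 13 counts, and 3.64 without WT 5.

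**Figure D2:**
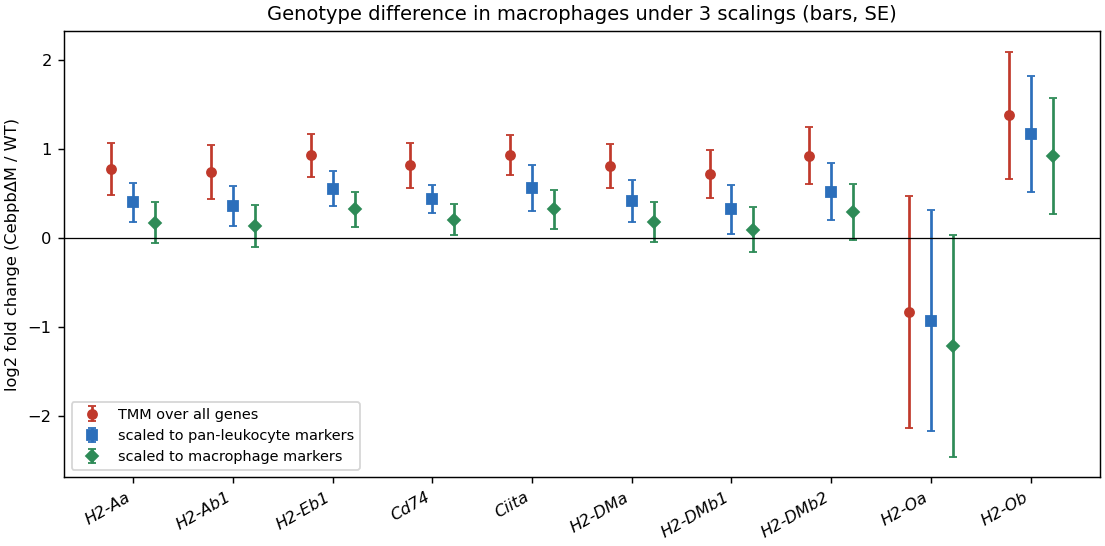
Log2 fold change of CebpbΔM over WT macrophages for each class II gene with TMM scaling over all genes (red), with libraries scaled to 3 pan-leukocyte markers (blue) and to 12 macrophage markers (green), and bars for the SE of each fit. The 8 genes other than H2-Oa and H2-Ob lie between 0.72 and 0.93 with TMM, between 0.32 and 0.56 on the leukocyte scale and between 0.09 and 0.32 on the macrophage scale.

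Macrophage markers moved with the class II genes. All 12 macrophage markers tested, such as C1qc, Adgre1 (which encodes F4/80, the antigen used for selection) and Csf1r, had higher fitted levels in CebpbΔM, with 0 called and a median of 0.57 on the log2 scale. Their summed level was 8704 and 9888 CPM in WT and between 11176 and 16601 CPM in CebpbΔM libraries. The 3 pan-leukocyte markers Ptprc, Laptm5 and Coro1a had a median of 0.39, with sums of 846.8 and 1170 CPM in WT and 1008 to 1466 CPM in CebpbΔM, where the genotypes overlapped. The epithelial sum was lower in CebpbΔM without overlap between the genotypes. Of the 12 epithelial markers 7 had lower and 5 higher fitted levels, with 0 called and a median of -0.15. Of these, the luminal keratin genes Krt8, Krt18 and Krt19 were lower without overlap, and the share of all genes lower without overlap was not counted. Krt14, a basal keratin gene, had a mean of 362 CPM in CebpbΔM and 125 CPM in WT, with overlap.

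Both the macrophage and the pan-leukocyte markers had higher fitted levels in CebpbΔM, so scaling to either lowered the log2 fold changes of all genes. A smaller class II difference after scaling was therefore fixed in advance and is not particular to class II. The first scaling was to the macrophage markers. On this scale the median log2 fold change was 0.19 for the 10 class II genes and -0.61 for all genes tested, and 0 of the 10 genes had an unadjusted P below 0.05. Cd74 was 1.15-fold higher in mean level, H2-Aa 1.13-fold and H2-Ab1 1.10-fold, each with overlap between the genotypes. H2-Eb1 and Ciita were each 1.25-fold higher, and of the 10 genes these 2 had no overlap on this scale, as 1.67% of all genes tested were higher without overlap there. Scaled to the pan-leukocyte markers, the median was 0.43 for the 10 genes and -0.36 for all genes, and Cd74 was 1.36-fold, H2-Eb1 1.47-fold and Ciita 1.47-fold higher. On that scale the genotypes did not overlap in 6 of the 10 genes, H2-Aa, H2-Ab1, H2-Eb1, Cd74, Ciita and H2-DMa, where 2.75% of all genes tested were higher without overlap. These scalings were added after the data had been seen, and with them 0 of the 10 genes and 0 of all genes were called by the quasi-likelihood test. Unadjusted P was below 0.05 for 6169 of all genes on the macrophage scale and for 2038 on the leukocyte scale, 2 of them class II genes.

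Ratios of raw counts to the same marker lists need no fit, but they are not separate from the scalings. The share of all genes without overlap was not counted for these ratios. There were 9.28 and 8.85 class II counts for each count of the 3 pan-leukocyte markers in WT macrophages 4 and 5, and 10.9, 13.4, 10.3 and 13.9 in CebpbΔM 4 to 7, without overlap. For each count of the 12 macrophage markers there were 0.903 and 1.05 class II counts in WT and 0.984, 1.33, 0.966 and 1.23 in CebpbΔM, with overlap. This ratio rested largely on Lyz2, which alone held 55.5% and 41.5% of the macrophage marker counts in WT 4 and 5. In the CebpbΔM libraries Lyz2 held 38.8% to 47.2%. The MEC libraries held 27.02 and 36.2 class II counts for each pan-leukocyte count in WT and 40.6 and 33.8 in CebpbΔM, but their pan-leukocyte sums were at most 1.80 CPM.

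**Figure D3:**
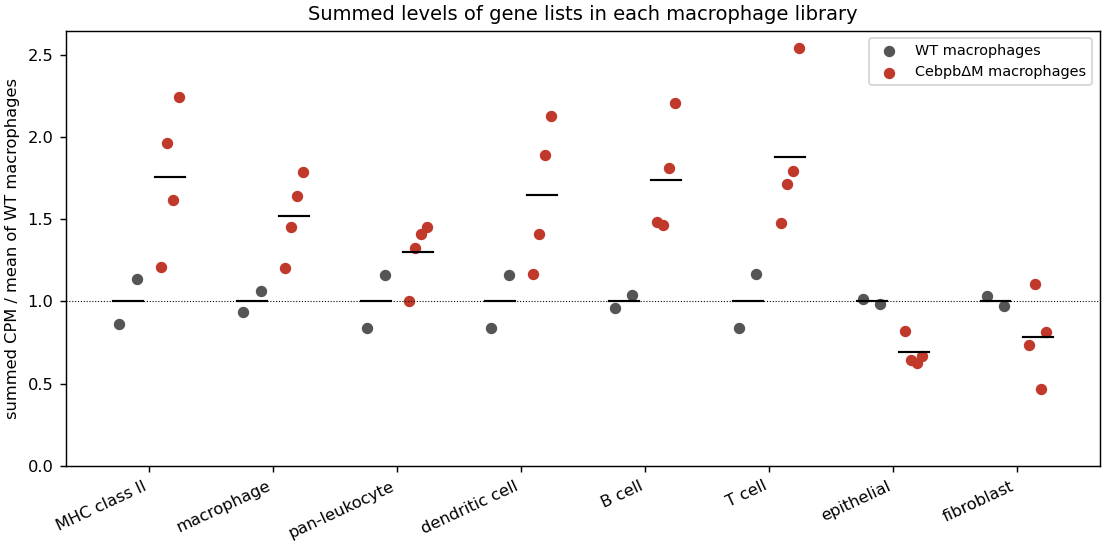
Summed CPM of each gene list in each macrophage library, divided by the mean of the 2 WT macrophage libraries. Gray points are WT and red points CebpbΔM libraries, and short lines are group means. In CebpbΔM the class II, macrophage, dendritic cell, B cell and T cell sums lie above both WT libraries. Of the 10 dendritic cell markers 7 had higher and 3 lower fitted levels, and the sum of CebpbΔM 4 lies just above that of WT 5. The epithelial sum, in which 5 of 12 markers had higher and 7 lower fitted levels, lies below both WT libraries.

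Other cells that can carry class II also left RNA in the macrophage libraries. The summed level of 10 dendritic cell markers was 402 and 555 CPM in WT and 558 to 1017 CPM in CebpbΔM. Most of it was Cd209a, a lectin gene of monocyte-derived dendritic cells, and Clec10a, both among the higher members. Mean levels in CebpbΔM and WT were 324 and 162 CPM for Cd209a and 382 and 229 CPM for Clec10a. They were 5.44 and 5.32 CPM for Flt3 and 1.90 and 2.04 CPM for Clec9a. Of the 10, 7 had higher and 3 lower fitted levels in CebpbΔM, 0 were called, and the lower ones included Zbtb46 and Itgax. Of 6 plasmacytoid dendritic cell markers 4 were tested, 3 with higher and 1 with lower fitted levels, 0 called and a median of 0.20, and among them Siglech had a log2 fold change of 1.81 ± 0.30 (SE). Of 12 B cell markers, 7 passed the level filter, all 7 had higher fitted levels in CebpbΔM and 0 were called. The B cell sum was 209 and 227 CPM in WT and 319 to 481 CPM in CebpbΔM, and most of it was Ighm, with 3287 to 6774 counts. The B cell genes Ms4a1 and Pax5 were at 0 in both WT macrophage libraries and at 0 to 17 counts in the CebpbΔM libraries. The sum of 8 T cell markers was 11.4 and 15.8 CPM in WT and 20.05 to 34.5 CPM in CebpbΔM. The sum of 6 plasma cell markers was 1.4 and 2.4 CPM in WT and 6.3 to 26.4 CPM in CebpbΔM, and that of 6 fibroblast markers 6852 and 7276 CPM in WT and 3315 to 7823 CPM in CebpbΔM. The part of these cells in the class II difference was not tested. Each covariate was the mean log2 CPM of the tested markers of a list. Over all 12 B cell markers this mean was 0.38 to 1.61 in CebpbΔM and -0.12 and -0.39 in WT libraries. The genotypes did not overlap, so a fit with the B cell level cannot fully separate it from genotype. Over the 12 epithelial markers the mean was 7.06 to 8.63 in CebpbΔM and 8.23 and 7.65 in WT libraries, with overlap. With the B cell level as a covariate 10 of the 10 genes had higher fitted levels, with a median of 1.22. The class II genes with an unadjusted P below 0.05 went from 8 to 1, and all such genes from 1534 to 955. With the epithelial level as a covariate 9 genes had higher fitted levels, with a median of 0.74. Of the 10 genes 8 had an unadjusted P below 0.05, as did 1865 of all genes tested.

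**Figure D4:**
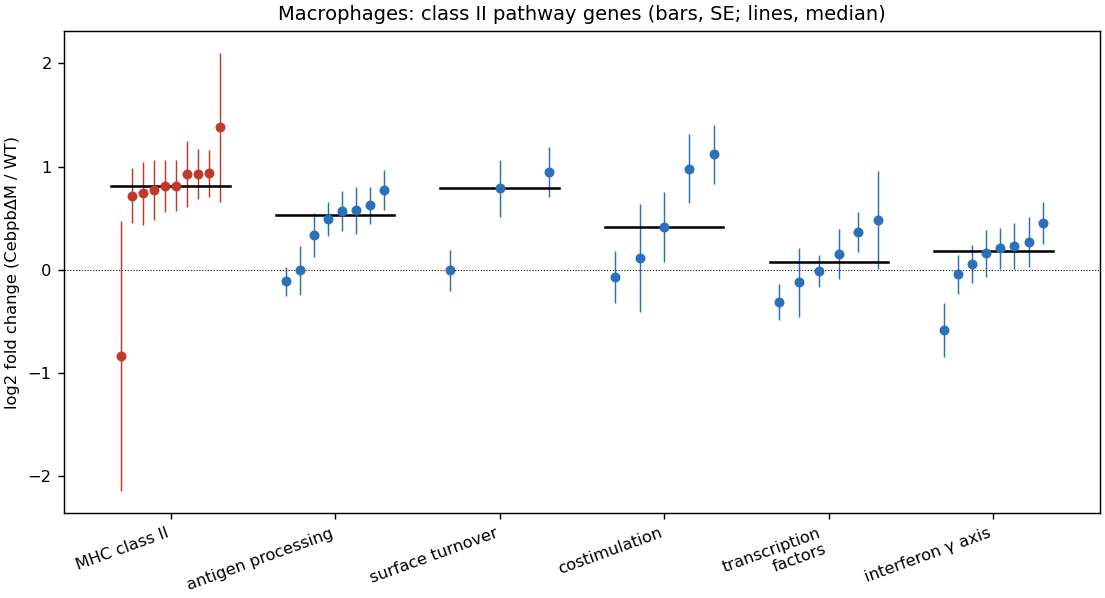
Log2 fold change of CebpbΔM over WT macrophages for the tested genes of 6 lists of the class II pathway, with bars for the SE and a line for the median of each list. The medians are 0.81 for MHC class II, 0.53 for antigen processing, 0.79 for surface turnover, 0.41 for costimulation, 0.07 for transcription factors and 0.18 for the interferon γ axis.

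Genes that act with class II were compared by lists in the same test, in which none of them was called. Of 8 genes of invariant chain cleavage and antigen processing, 6 had higher and 2 lower fitted levels in CebpbΔM macrophages, and the median was 0.53 on the log2 scale. The smallest P-values were those of Ctss, which encodes cathepsin S, the protease of the last steps of invariant chain cleavage (log2 fold change 0.77 ± 0.19, SE), and of Ctsh, which encodes cathepsin H (0.63 ± 0.18). Of 3 genes of class II surface turnover, Cd83, whose product stabilizes surface class II, and March1, whose product ubiquitinates it for removal, had log2 fold changes of 0.95 ± 0.24 and 0.79 ± 0.28, and March8 had -0.0045 ± 0.20. Of 5 costimulation genes, 4 had higher and 1 lower fitted levels, led by Cd86 (1.12 ± 0.28) and Cd40 (0.98 ± 0.34). Cd4 and Lag3, whose products bind class II, had log2 fold changes of 1.91 ± 0.57 and 0.65 ± 0.26.

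The factors that bind class II promoters did not move in 1 direction. Of 7 such genes 6 were tested, 3 with higher and 3 with lower fitted levels in CebpbΔM macrophages, and the median log2 fold change was 0.07. Creb1 (0.37 ± 0.19, SE) and Rfxank (-0.31 ± 0.18), a subunit of RFX, had the smallest P-values, and Rfx5 was at 0.48 ± 0.47. Of 9 genes of the interferon γ axis, the main inducer of Ciita in macrophages, 8 were tested, 6 with higher and 2 with lower fitted levels and a median of 0.18. Jak2, a kinase of the interferon γ receptor, was at -0.58 ± 0.26 and Irf8 at 0.45 ± 0.20, the pair with the smallest P-values of that list. Ifng had 0 counts in all 10 libraries.

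The class II genes varied together from library to library. Over the 6 macrophage libraries, the mean log2 CPM of H2-Aa, H2-Ab1, H2-Eb1 and Cd74 correlated with Ciita at Pearson r = 0.97, with H2-DMa and H2-DMb1 at r = 0.98, with H2-DMb2 at r = 0.93, with H2-Ob at r = 0.77 and with H2-Oa at r = 0.29. Among 10432 other genes with a mean of at least 10 CPM, those with the most similar pattern were Mpp1 (r = 0.99), Renbp (0.99), Aph1c (0.98), Rgs18 (0.98), Ptprc (0.98), Lilrb4a (0.98), H2-Ea-ps (0.98) and Gps2 (0.98). These are descriptions over 6 libraries that share the genotype groups and the admixture of other cells, and no P is given.

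In MECs the question was whether class II levels in the epithelial fraction differed with the genotype of the myeloid cells. Of the 10 genes 6 passed the level filter, and of these 4 had higher and 2 lower fitted levels in CebpbΔM and 0 were called, where 0.0446% of the 15698 genes tested were higher at an adjusted P of 0.05 or less. Before adjustment 0 of the 6 genes had P below 0.05. The genotypes overlapped in all 6 genes, whereas 28.7% of all genes tested had no overlap. The median log2 fold change of the 6 genes was 0.19, against -0.0078 over all genes tested.

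Cd74 was the most abundant class II transcript of the MEC fraction, with 562 and 292 counts in WT 1 and 3 and 883 and 495 counts in CebpbΔM 1 and 3, which are 21.4, 11.3, 33.9 and 18.8 CPM. Its log2 fold change was 0.69 ± 0.35 (SE), with an adjusted P of 0.9997 by the quasi-likelihood test. H2-DMa followed with 12.7 and 10.5 CPM in WT and 17.3 and 10.4 CPM in CebpbΔM. H2-Ab1 had 7.45 and 5.47 CPM in WT and 11.1 and 6.68 CPM in CebpbΔM, with a log2 fold change of 0.46 ± 0.34. In these 3 genes CebpbΔM 1 was the highest library.

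H2-Aa and H2-Eb1 were lower in MECs, between 1.71 and 3.69 CPM. H2-Aa had 2.01 and 2.44 CPM in WT and 3.03 and 1.86 CPM in CebpbΔM, and H2-Eb1 had 2.13 and 3.69 CPM in WT and 2.69 and 1.71 CPM in CebpbΔM. Ciita had 47 and 32 counts in WT and 25 and 33 counts in CebpbΔM, with a log2 fold change of -0.45 ± 0.47. H2-DMb1 and H2-DMb2 had 1 to 9 counts in each MEC library and H2-Oa 1 to 15. These genes were below the level filter, and their differences between genotypes were not tested. H2-Oa had 15 and 10 counts in CebpbΔM and 6 and 1 in WT, without overlap, where 28.7% of all genes tested had no overlap. The macrophage marker sum was 31.8 to 43.1 CPM in MECs, of which Csf1r, Mertk and Cd68 made up 78.8% to 89.2%, against 13.7% to 16.3% in macrophage libraries. Adgre1 had 0 counts in both CebpbΔM MEC libraries and 13 and 2 in WT. The cells from which the class II transcripts of the MEC libraries came were not tested.

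The difference in genotype effect between macrophages and MECs was tested over all 10 libraries, and 0 of the 10 genes and 0% of the 18323 genes tested were called higher. DESeq2 and the likelihood ratio test also called 0 of the 10. Before adjustment, Ciita and H2-Eb1 had P below 0.05, as did 951 of the 18323 genes tested. The genotype effect of Ciita was larger in macrophages by 1.43 ± 0.40 on the log2 scale (SE, adjusted P = 0.83 by the quasi-likelihood test), and that of H2-Eb1 by 1.37 ± 0.46 (adjusted P = 0.92). For H2-Aa the difference was 0.68 ± 0.48, for H2-DMa 0.60 ± 0.42, for H2-Ab1 0.32 ± 0.49 and for Cd74 0.17 ± 0.50. H2-DMb1, H2-DMb2, H2-Oa and H2-Ob passed the filter of this fit through the macrophage libraries, and H2-Ob, with 0 counts in all MEC libraries, gave no usable estimate.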

How the data were processed

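RNA from mammary macrophages (6 libraries) and MECs (4 libraries) was sequenced from low-input libraries with paired ends. The authors trimmed reads with Trimmomatic, mapped them to GRCm38 with HISAT2 and counted pairs per gene of the Ensembl annotation with featureCounts (version 1.6.2), using strand. The deposited tables hold these raw counts, unnormalized and whole. Symbols were taken from the GENCODE annotation of GRCm38 and promoter windows from RefSeq.

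From the counts, genes of at least 300 nt with over 1 CPM in at least 2 libraries entered the quasi-likelihood test of edgeR (version 4.0.16, R version 4.3.3) with TMM normalization and Benjamini–Hochberg adjustment over all genes tested, at a threshold of 0.05. The study used the likelihood ratio test instead, here an alternative. Macrophages and MECs were fitted separately, and the interaction and cell type contrasts in one fit of 10 libraries. An SE is the log2 fold change divided by the square root of the F statistic. Log2 CPM used a prior count of 2. All 10 class II genes were to be named, with the genes of smallest P in each pathway list and the 8 genes of most similar pattern. The members and lists were chosen with earlier results of these data known. Alternatives were DESeq2 (version 1.42.0), the likelihood ratio test, relative log expression (RLE) normalization, other filters, all 10 libraries in one fit, the replicate number as a block, marker levels as covariates and leaving out each library. Scaling to marker lists and a fit of replicates 4 and 5 were added after seeing the data. The scripts were tested on simulated counts with 200 changed genes.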

Additional observations from a re-analysis of the deposited data

Results flagged for a closer look

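H2-Ob was flagged because 1 of the 4 CebpbΔM macrophage libraries lay far from the others. CebpbΔM 5 had 12.03 CPM, whereas CebpbΔM 4, 6 and 7 had 7.54, 7.38 and 7.24 CPM, and the gap to the nearest library was 0.938 of the whole range (Dixon's ratio, above its 95% critical value). Chance flags about 1 in 20 such groups, and 11 groups of values were examined. The difference of the genotype effects between macrophages and MECs passed the threshold for 0 of the 10 genes by edgeR's quasi-likelihood test.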

How the results depend on the processing

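The count of class II genes called between the macrophage genotypes was 0 under the quasi-likelihood test and 2 with DESeq2, which called Ciita (adjusted P = 0.026) and H2-Eb1 (adjusted P = 0.028), and the cause of the difference between the tools was not tested. It stayed at 0 with the other planned and added alternatives and with each library left out, where adjusted P-values were at least 0.38. Counts of all genes called in macrophages were 138 with the likelihood ratio test, 201 with DESeq2 and 12 with the replicate block, against 0. In MECs 8 genes were called, and 179 with the likelihood ratio test, 161 with DESeq2, 205 with the replicate block, 67 with no filter beyond 1 count, 4 with filterByExpr, 0 with all 10 libraries and 2 (without WT 3) to 337 (without CebpbΔM 3) with each library left out, of which 0 were class II genes. For the difference between cell types, 53, 27 and 1 genes were called with the likelihood ratio test, DESeq2 and the replicate block, against 0, and 0 to 1 with each library left out.

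In the contrasts of macrophages with MECs, 9 class II genes were called with each alternative that used all libraries, and 9 to 10 in WT and 9 in CebpbΔM with each library left out, where H2-Oa was the tenth without WT macrophage 4, which held 0 counts of it. With 1 library left out the lone sample was assumed to vary like the other groups. The log2 fold changes of the 8 genes other than the DO genes stayed positive in macrophages in all fits, between 0.53 and 1.13 with each library left out.

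Replicate numbers are shared between groups without a stated pairing. The deviations of same-numbered libraries correlated at 0.13 and -0.087 in macrophages and at 0.11 in MECs. In a group of 2 libraries the deviations from the group mean mirror each other, so these values cannot decide whether the libraries were paired. Without a stated pairing the numbers were not taken as pairs. With the replicate block, 0 class II genes were called in macrophages, in MECs and in the difference between cell types, and the median log2 fold change in macrophages was 0.64. The sign turned with the block for H2-Oa in macrophages (0.59) and for the Cd74 difference between cell types (-0.029). H2-Oa also turned with the B cell level as a covariate (8.95) and ranged from -1.83 to 7.39 with each library left out. With each library left out, the sign also turned for H2-Aa (-0.26 to 0.44), H2-DMa (-0.16 to 0.57) and H2-Eb1 (-0.77 to 0.058) in MECs, and in the difference between cell types for H2-Ab1 (-0.012 to 0.76), Cd74 (-0.38 to 0.69) and H2-Oa (-4.25 to 5.80). With 2 libraries in 3 of the 4 groups and under 20 counts for the DO and DMb genes in MECs, depth and number of libraries limit these values.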
